A study of Mus musculus with 16 samples.

Results

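The clustered protocadherins were taken as the protein-coding genes on chromosome 18 of the GENCODE M1 annotation whose symbols begin with Pcdha, Pcdhb or Pcdhg, which gave 24 of 22232 protein-coding genes (2 alpha, 21 beta and 1 gamma gene record). They were read in 10 peak lists from chromatin immunoprecipitation followed by sequencing (ChIP-seq) of mouse cells. The embryonic stem cells (ES) were 46C, a line with a green fluorescent reporter at Sox1, and the neural precursor cells (NPC) were 46C cells collected at day 6 of neural differentiation in suspension. For each stage there was 1 list of H2AK119ub1 (monoubiquitinated histone H2A, made by Polycomb repressive complex 1) and 1 of H3K27me3 (trimethylated histone H3, made by Polycomb repressive complex 2) in wild type cells and in PCGF5-depleted cells, 8 lists in all. The labels give the depleted cells as shPCGF5, while the methods of the study also describe a nuclease knockout, and no expression was measured here that could check the depletion. PCGF5, one of the proteins that define variants of Polycomb repressive complex 1, was mapped in the remaining 2 lists, with an antibody against Flag in ES and NPC that the labels call wild type and in which the study had tagged the Pcgf5 gene. Every group had 1 library, so no comparison below has a replicate check, and no p-value is given.

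Clustered protocadherins are cell adhesion proteins of neurons. In the alpha and gamma arrays each isoform has a promoter of its own and 1 large variable exon, which holds the extracellular part and is spliced to short constant exons shared by the whole array. Beta genes consist of a single large exon and have no constant exons. Single neurons use a few isoforms each, and the combination gives the cell a surface identity. The last variable exons of the alpha and gamma arrays, called C-type, differ from the others in how their promoters are chosen.

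On mm9 (the NCBIM37 assembly) the alpha span ran from chr18:37089939-37347311, the beta span from chr18:37424652-37681073 and the gamma span from chr18:37833989-38001527, all on the plus strand and together 681334 bp. The annotation merges isoforms, so that the record Pcdha11 held 10 start sites and Pcdhgc5 held the 10 annotated start sites of the gamma array, next to the separate record Pcdha3 and the beta genes with 25 start sites. To see the variable exons that the annotation leaves out, open reading frames of at least 600 codons were taken from the plus strand of the spans. There were 59 of these (14 alpha, 25 beta and 20 gamma), of which 40 overlapped an annotated coding exon of a member, and they are numbered below from the first in each span. They made up 21.1% of the bases of the spans. In 3 of them (beta frames 9 to 11), 86.0%, 100% and 98.8% of the 36-base windows occurred more than once on the chromosome, and none of these 3 overlapped a member or a peak. Long frames at chr18:37821599-37824031 and chr18:37828759-37831224 lay before the annotated gamma span and are not counted below. The first had no peak in any list. The second had 2 H3K27me3 peaks in PCGF5-depleted ES, 3 in PCGF5-depleted NPC and 0 in wild type ES and wild type NPC.

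The histone lists held 3845 to 14759 peaks and the Flag-PCGF5 lists 653 in ES and 12013 in NPC. Depth is unknown, as the files held no totals of reads, and a longer list can come from deeper sequencing as well as from more of the mark. At the marker genes, H3K27me3 peaks were at the starts of Pax6 (9 to 18 peaks), Gata6 (2 to 4) and T (2 or 3) in all 4 lists and at Sox1, Pou5f1 and Nanog in none. Nes, a neural precursor gene, had 0 peaks in wild type ES, 2 in PCGF5-depleted ES, 1 in wild type NPC and 2 in depleted NPC. These peaks do not check the stages.

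Of the marks and the factor, H3K27me3 was found at the most members. A member was counted as marked when the centre of a peak lay within 2500 bp of one of its start sites. In wild type ES 15 of 24 members were marked, or 62.5% (95% Wilson interval 42.7 to 78.8%), where 13.4% of all genes were. In PCGF5-depleted ES 10 members were marked, against 12.9% of all genes. In wild type NPC 14 members were marked, against 15.7% of all genes, and in PCGF5-depleted NPC 18 members were, or 75.0% (55.1 to 88.0%), against 15.4%. The intervals cover counting error only, and neighbouring members are not independent of each other. Both alpha records, Pcdhgc5 and the beta genes Pcdhb1, Pcdhb7, Pcdhb14, Pcdhb21 and Pcdhb22 were marked in all 4 lists, which is 8 of 24 members where 7.21% of all genes were. For Pcdhb22, the peak counted in PCGF5-depleted ES and in wild type NPC lay in the frame of Pcdhb21, whose start was nearer. When each peak was given to its nearest start only, 9 members were marked in PCGF5-depleted ES and 13 in wild type NPC. Pcdhb2, Pcdhb4, Pcdhb8, Pcdhb9 and Pcdhb15 had no peak at a start in any of the 10 lists, which is 5 of 24 members where 66.2% of all genes had none.

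By start site, which splits the merged records, 28 of 46 sites had an H3K27me3 peak in wild type ES (11.4% of all 45974 start sites did), 19 in PCGF5-depleted ES (10.9%), 27 in wild type NPC (13.7%) and 38 in depleted NPC (13.3%). Of the 11 alpha sites, 10 were marked in wild type ES and 6 in PCGF5-depleted ES. Of the 25 beta sites, 14 were marked in wild type ES and 8 in PCGF5-depleted ES. Of the 10 gamma sites, 4 and 5 were.

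In ES, the members with an H3K27me3 peak in wild type cells alone were Pcdhb10, Pcdhb12, Pcdhb13, Pcdhb17, Pcdhb18 and Pcdhb19, which is 6 members where 3.9% of all genes were found in wild type alone. Pcdhb11 was marked in PCGF5-depleted ES alone (3.43% of all genes). The 7 members that differed between the genotypes in ES were all beta genes. However, 21 of the 24 members are beta genes, and the merged alpha and gamma records hide differences at single start sites. By start site, 12 of 46 were marked in wild type ES alone, among them sites of Pcdha11. In PCGF5-depleted ES alone 3 sites were marked, in Pcdha11, Pcdhb11 and Pcdhgc5. The share of all start sites that differed in this way was not counted, so these site counts have no background. Neighbouring sites, such as those of Pcdhb18, can also share a peak. The count of members depended on the window. With 1000 bp in place of 2500 bp, 3 members were marked in wild type and 4 in PCGF5-depleted ES. Of the 37 wild type peaks near a start, 29 had their centre beyond 1000 bp of it.

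In NPC the genotypes stood the other way round. Pcdhb6, Pcdhb10, Pcdhb12, Pcdhb16 and Pcdhb18 were marked in PCGF5-depleted cells alone (3.54% of all genes were), and Pcdhb3 in wild type alone (3.74%). Pcdhb12 had 2 peaks in wild type ES with a highest fold enrichment of 5.09, none in PCGF5-depleted ES, none in wild type NPC and 2 in PCGF5-depleted NPC with a highest fold of 5.57. Pcdhb18 had 2 peaks in wild type ES (highest fold 5.36), none in PCGF5-depleted ES or wild type NPC and 3 in PCGF5-depleted NPC (3.98). The weaker of its peaks in wild type ES lay in the frame of Pcdhb17, whose start was nearer. Pcdhb10 followed the same order with 1 peak in wild type ES (4.03) and 1 in PCGF5-depleted NPC (3.69). These 3 beta genes were thus marked in wild type ES and in depleted NPC and in neither of the other lists, a pattern that 0.427% of all genes had. They were singled out after their values were seen.

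From ES to NPC, wild type cells had 4 members marked in ES alone (Pcdhb10, Pcdhb12, Pcdhb16 and Pcdhb18, where 3.81% of all genes were) and 3 in NPC alone (Pcdhb3, Pcdhb5 and Pcdhb11, against 6.08%). PCGF5-depleted cells had 8 members in NPC alone, against 5.6% of all genes, and 0 in ES alone, against 3.07%. The 8 were Pcdhb5, Pcdhb6, Pcdhb10, Pcdhb12, Pcdhb13, Pcdhb17, Pcdhb18 and Pcdhb19. Each of the 10 members marked in PCGF5-depleted ES was therefore marked in PCGF5-depleted NPC as well.

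**Figure D1:**
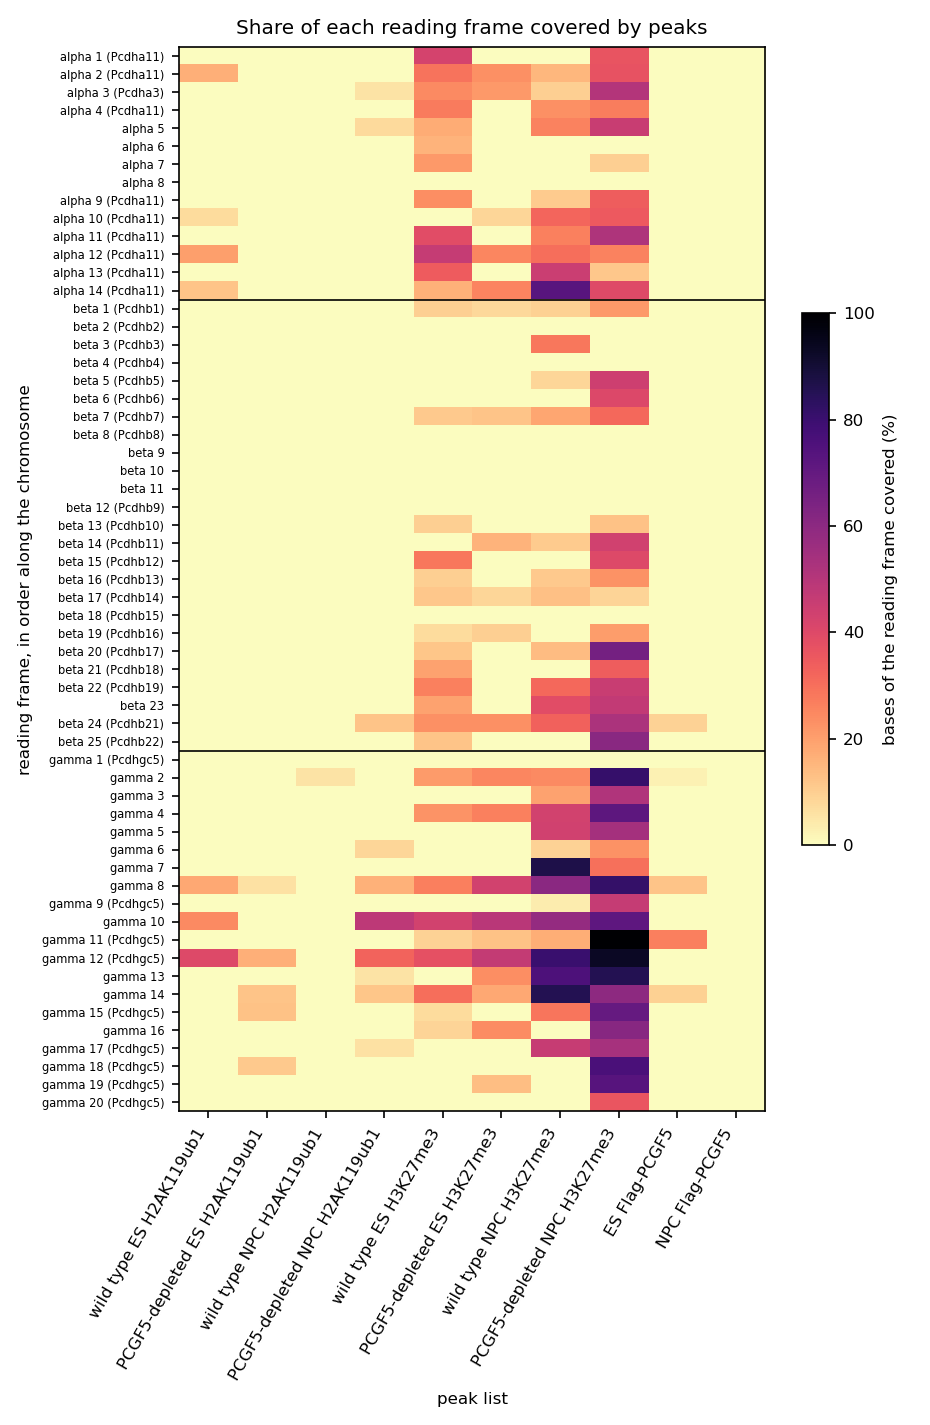
Share of the bases of each of the 59 long reading frames covered by peaks (colour, 0 to 100%), with frames in rows in their order along the chromosome and the 10 peak lists in columns; the member gene is given where the annotation has a coding exon there. The PCGF5-depleted NPC column of H3K27me3 is the most filled, with 47 frames touched, the beta rows from frame 8 to 12 are empty, and the NPC Flag-PCGF5 column is empty throughout.

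Most of the bases covered by H3K27me3 in the spans lay inside the long reading frames. Between 82.9% and 95.6% of the H3K27me3-covered bases of the spans fell in the 59 reading frames. A peak touched 34 frames in wild type ES and 21 in PCGF5-depleted ES, and it touched 36 frames in wild type NPC and 47 after depletion. Long coding exons elsewhere in the genome (984 exons of at least 1800 bp that belong to no member) were touched in 16.4%, 14.4%, 8.84% and 11.5% of cases in the same order of lists, so that between wild type ES and wild type NPC the share of other long exons was lower in NPC, while the number of protocadherin frames was close to the same.

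Averaged over the frames, 24.9% of the bases from 1250 to 2249 bp after the first codon were covered in wild type ES and 3.86% of the bases from 0 to 999 bp. In PCGF5-depleted ES these shares were 11.6% and 6.04%. In wild type NPC they were 26.0% and 18.8%, and in PCGF5-depleted NPC 45.9% and 34.0%. In ES the mark was thus mostly in the 3′ part of the frame, and in NPC it also covered the 5′ part, with 23.8% of the first 250 bp covered in wild type NPC. In the 1000 bp before the frame, where most promoters lie, 0.885% to 4.01% of the bases were covered in the 4 lists.

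**Figure D2:**
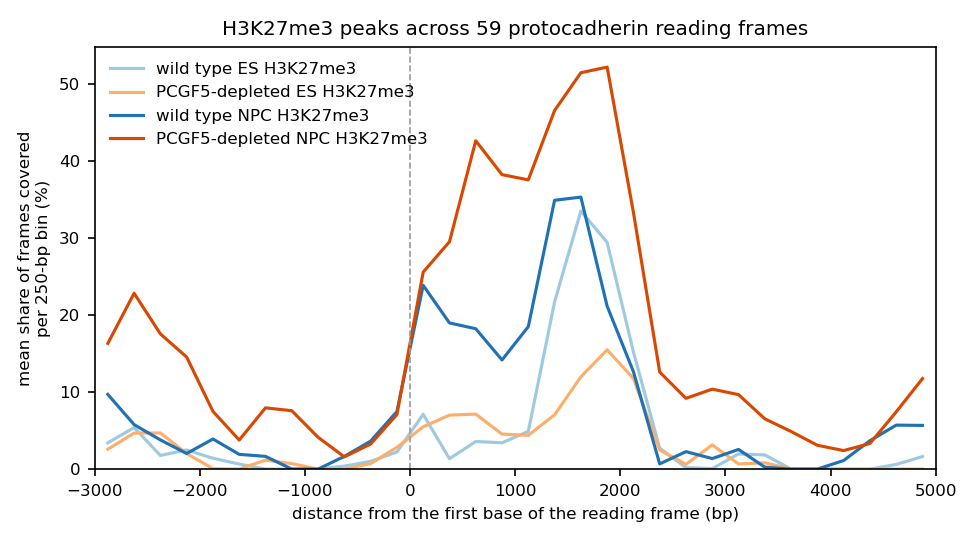
Mean share of the 59 reading frames covered by H3K27me3 peaks (y axis, %) in bins of 250 bp by distance from the first base of the frame (x axis, bp), 1 line per library. Each line has its highest bin at 1500 or 1750 bp, at 33.5% in wild type ES, 15.5% in PCGF5-depleted ES, 35.3% in wild type NPC and 52.2% in depleted NPC.

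Over the 3 spans, 47 H3K27me3 peaks covered 18978 bp in wild type ES, 32 peaks covered 12490 bp in PCGF5-depleted ES, 60 peaks covered 32453 bp in wild type NPC and 1.98 times as many peaks covered 65487 bp in PCGF5-depleted NPC. These are 2.79%, 1.83%, 4.76% and 9.61% of the bases, where the rest of chromosome 18 was covered to between 0.109% and 0.246%. In NPC the covered length was 2.02 times as large in PCGF5-depleted as in wild type cells, while over the genome it was 0.846 times as large. The ratio stayed at 2.01 when both lists were cut to the same number of top-scoring peaks. The Hox clusters, the best known Polycomb targets, had ratios of covered length below 1, as the genome had, of 0.797 (HoxB), 0.840 (HoxC), 0.874 (HoxA) and 0.907 (HoxD). By number of peaks the contrast was smaller, since against 1.98 in the spans the ratio was 1.30 over the genome and 1.41 (HoxC), 1.59 (HoxD), 1.60 (HoxA) and 1.82 (HoxB) in the Hox clusters.

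In ES the covered length was 0.658 times as large in PCGF5-depleted as in wild type cells, against 0.891 over the genome. The subfamilies differed. The alpha span had 8787 bp in wild type and 3250 bp in PCGF5-depleted ES, and the beta span 4801 and 1866 bp, but the gamma span had 5390 and 7374 bp. In NPC all 3 spans were covered more in PCGF5-depleted cells, from 8514 to 11871 bp in alpha, from 5209 to 15002 bp in beta and from 18730 to 38614 bp in gamma, which is 11.2% and 23.0% of the gamma span. From ES to NPC the gamma span of wild type cells was covered 3.47 times as much, while alpha (0.969) and beta (1.08) had nearly the same length and the genome had 2.24 times as much.

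**Figure D3:**
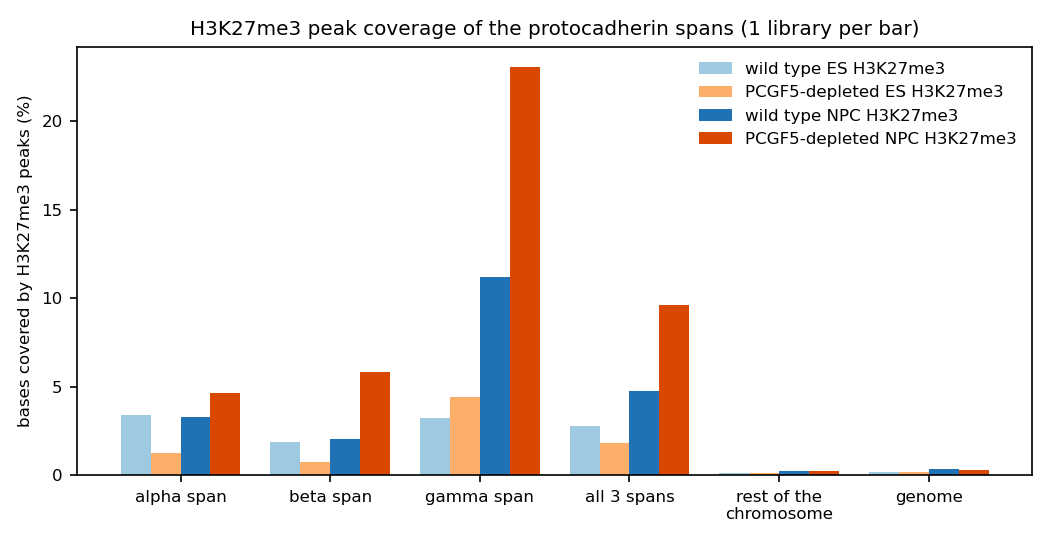
Bases covered by H3K27me3 peaks (y axis, %) in the alpha, beta and gamma spans, in the 3 together, in the rest of chromosome 18 and in the genome, with 1 bar per library and no error bars because each group has 1 library. The PCGF5-depleted NPC bar is the highest in each span and reaches 9.61% over the 3 spans and 23.0% in the gamma span, where the genome has 0.308%.

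Frame by frame, PCGF5-depleted NPC had more H3K27me3-covered bases than wild type NPC in 41 frames, fewer in 7 and the same number in 11. In ES, 15 frames had more in PCGF5-depleted cells, 23 had fewer and 21 were equal. In the gamma span the mean share of a frame that was covered was 10.3% in wild type ES, 14.1% in PCGF5-depleted ES, 34.0% in wild type NPC and 60.9% in depleted NPC. Gamma frame 11, which overlaps a coding exon of Pcdhgc5, was covered to 9.33% in wild type ES, 12.8% in PCGF5-depleted ES, 16.9% in wild type NPC and 100% in depleted NPC. Gamma frame 12, also of Pcdhgc5, was covered to 37.5%, 46.6%, 80.4% and 93.1%. Among the beta genes, the frame of Pcdhb17 was covered to 11.8% in wild type ES, 0% in PCGF5-depleted ES, 14.0% in wild type NPC and 65.8% in depleted NPC, and that of Pcdhb22 to 12.1%, 0%, 0% and 60.8%.

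In NPC the ends of the alpha and gamma arrays differed between the genotypes in opposite directions. The last 3 gamma frames, which lie 38.0 kb after the other 17 and belong to Pcdhgc5, had no H3K27me3 peak in either wild type list. In PCGF5-depleted NPC they were covered to 76.4%, 73.2% and 36.2%, and in PCGF5-depleted ES the second of them was covered to 13.6% and the others not at all. The last 2 alpha frames were covered to 34.6% and 16.1% in wild type ES, 0% and 25.5% in PCGF5-depleted ES, 45.0% and 72.7% in wild type NPC and 11.4% and 39.8% in PCGF5-depleted NPC. They are 2 of the 7 frames with less H3K27me3 in PCGF5-depleted than in wild type NPC. Another of these, gamma frame 7, had 86.8% in wild type NPC and 29.9% in PCGF5-depleted NPC.

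**Figure D4:**
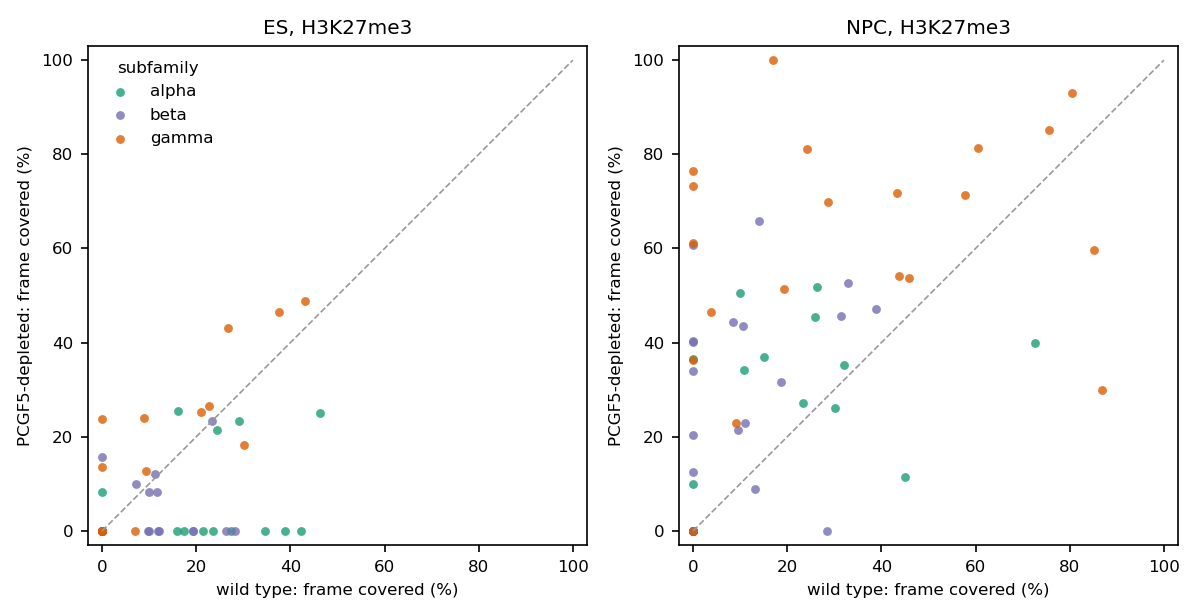
Share of each of the 59 reading frames covered by H3K27me3 peaks in wild type (x axis, %) against PCGF5-depleted cells (y axis, %), in ES (left) and NPC (right), 1 point per frame coloured by subfamily, with the line of equal shares. In NPC 41 points lie above the line and 7 below; in ES 15 lie above and 23 below.

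The highest H3K27me3 enrichments were mostly in the gamma span. Of the 5 peaks with the highest fold in the 4 H3K27me3 lists, wild type NPC had 3, in gamma frame 17 (fold 8.26), gamma frame 12 (7.87) and alpha frame 14 (7.58). PCGF5-depleted ES had 1 in gamma frame 4 (7.77) and PCGF5-depleted NPC had 1 in gamma frame 19 (7.43). The lists were called separately and at unknown depth. Folds of different lists, here and for H2AK119ub1 below, are therefore not on a common scale. Within their own lists, the H3K27me3 peaks of the spans were close to the middle in fold. Their median fold was 4.56 in wild type ES, 5.07 in PCGF5-depleted ES, 4.45 in wild type NPC and 4.21 in depleted NPC, where the whole lists had medians of 4.30, 5.07, 4.69 and 4.11. Ranked by −log10 p-value within their lists, their median percentiles were 55.1, 47.1, 32.5 and 47.2 in the same order, so those of wild type NPC ranked lowest.

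H2AK119ub1 was sparse. At the start sites it marked Pcdha11 and Pcdhgc5 in wild type ES (2 of 24 members, against 6.69% of all genes), Pcdhgc5 in PCGF5-depleted ES (1 member, 5.96%), no member in wild type NPC (0 of 24, 4.98%) and Pcdha3, Pcdhb21 and Pcdhgc5 in PCGF5-depleted NPC (3 members, 4.17%). The share in PCGF5-depleted NPC was 12.5% (95% Wilson interval 4.34 to 31.0%), and the intervals of the other 3 lists include the share of all genes. With neighbouring members read in 1 library, these intervals are not a test. Ranked by −log10 p-value, the PCGF5-depleted NPC peaks at Pcdha3 and Pcdhb21 were at percentiles 4.03 and 5.15 of their list. With a q-value of at most 0.01, 1 member was left there. By start site 6, 3, 0 and 4 of 46 were marked, against 5.8%, 4.94%, 4.08% and 3.51% of all start sites. The 6 sites of wild type ES are 13.0% (6.12 to 25.7%), and 5 of them belong to Pcdha11. The 4 sites of PCGF5-depleted NPC are 8.70% (3.43 to 20.3%), an interval that includes the share of all start sites. Between the genotypes in ES, Pcdha11 was marked in wild type alone (3.43% of all genes) and 0 members in PCGF5-depleted cells alone (2.69%). In NPC, Pcdha3, Pcdhb21 and Pcdhgc5 were marked in PCGF5-depleted cells alone (1.65% of all genes) and 0 members in wild type alone (2.46%). Between the stages, wild type cells had Pcdha11 and Pcdhgc5 in ES alone (4.22%) and 0 members in NPC alone (2.51%). PCGF5-depleted cells had 0 members in ES alone (3.52%) and Pcdha3 and Pcdhb21 in NPC alone (1.74%).

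Within the spans the H2AK119ub1 peaks of ES covered 3443 bp in wild type and 1988 bp in PCGF5-depleted cells, and those of NPC 134 bp and 3973 bp. In NPC the difference ran against the rest of the list, since the covered length over the genome was 0.482 times as large in PCGF5-depleted as in wild type cells, and in the 4 Hox clusters 0.138 to 0.236 times. The counts behind it are small, with 1 peak against 11. Of the 59 frames, H2AK119ub1 touched 7 in wild type and 5 in PCGF5-depleted ES, where 12.1% and 5.69% of the other long coding exons were touched, and 1 and 10 in NPC, where 3.96% and 4.98% were. Of the 11 peaks, 8 were in the gamma span, and the highest, of 835 bp and fold 8.84, lay in gamma frame 12, where H3K27me3 covered 93.1% of the frame. The next was in gamma frame 17 of the same list (fold 6.62), followed by gamma frame 10 in wild type ES (6.09), gamma frame 8 in PCGF5-depleted NPC (5.82) and, tied at 5.74 in wild type ES, alpha frames 12 and 14 and gamma frame 12. All 4 alpha frames with H2AK119ub1 in wild type ES (frames 2, 10, 12 and 14) had none in the other 3 lists.

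PCGF5 itself was found in ES and not in NPC. In ES 2 of 24 members, Pcdhb21 and Pcdhgc5, had a peak centred within 2500 bp of a start site, where 0.787% of all genes did. Of the start sites 3 of 46 had a peak, where 0.748% of all start sites did. In NPC 0 of 24 members had one, although the NPC list was longer and 13.7% of all genes had a peak (0 of 46 start sites, 13.1%). Both members were thus found in ES alone, as 0.526% of all genes were, and 0 in NPC alone, as 13.5% were. With a window of 1000 bp in place of 2500 bp, 1 member had a PCGF5 peak in ES. The ES list held 11 peaks on chromosome 18, of which 6 lay in the spans, 1 in beta and 5 in gamma, and none in alpha. They were at chr18:37675352-37675566 in the frame of Pcdhb21 (fold 3.00), chr18:37839948-37840173 at the start of gamma frame 2 (7.59), chr18:37882060-37882356 in gamma frame 8 (4.69), chr18:37896416-37896970 at the start of gamma frame 11 (4.62), chr18:37898619-37899073 in the same frame (5.39) and chr18:37913240-37913480 in gamma frame 14 (3.62). The 5 frames touched are 8.47% of the 59, where 0.508% of the other long coding exons were touched. All 5 frames had H3K27me3 in all 4 lists, where 15 of the 59 frames did. In NPC the 0 frames touched stood against 5.08% of other long coding exons.

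**Figure D5:**
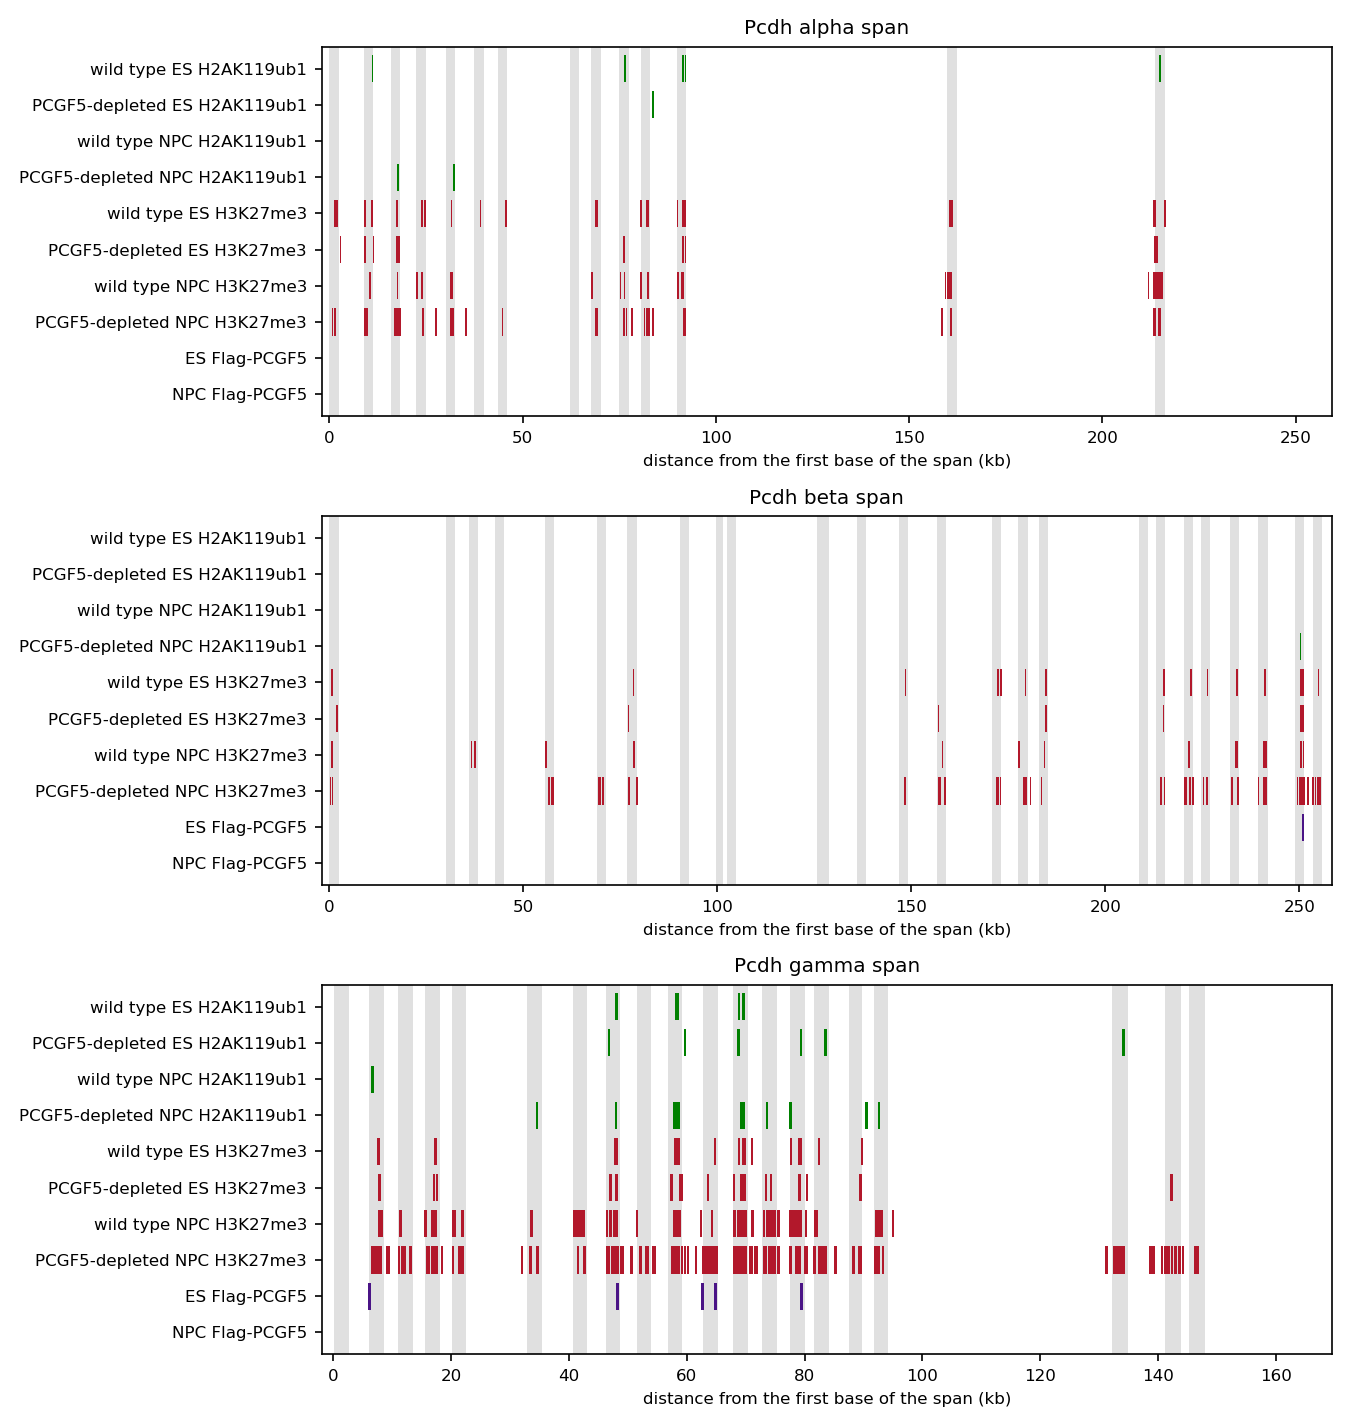
Peaks of the 10 lists (rows; green H2AK119ub1, red H3K27me3, purple Flag-PCGF5) along the alpha, beta and gamma spans, by distance from the first base of the span (x axis, kb), with the 59 long reading frames as grey bands and very short peaks drawn at 0.4 kb. Most red bars sit on the grey bands, and the last 3 bands of the gamma span hold red bars in PCGF5-depleted cells and none in wild type cells.

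Overlap of at least 1 bp between the lists was counted within the spans and over all peaks of the lists. Of the 60 H3K27me3 peaks of wild type NPC, 39 (65.0%) were overlapped by one of PCGF5-depleted NPC, and 41 peaks (34.5%) of PCGF5-depleted NPC were overlapped in turn, where over all peaks 58.5% and 59.5% were. In ES 19 of 47 wild type peaks (40.4%) and 18 of 32 PCGF5-depleted peaks (56.3%) were, against 35.1% and 41.6% of all peaks. The wild type ES peaks lay under PCGF5-depleted NPC peaks in 39 of 47 cases (83.0%, against 44.8% of all peaks). They lay under wild type NPC peaks in 26 of 47 cases (55.3%, against 43.0%). The PCGF5-depleted ES peaks lay under PCGF5-depleted NPC peaks in 28 of 32 cases (87.5%, against 50.0%). The PCGF5-depleted NPC list covers more of the spans than the wild type NPC list. Of the 11 H2AK119ub1 peaks of PCGF5-depleted NPC, 10 (90.9%) lay on H3K27me3 of the same cells, as did 7 of 9 (77.8%) in wild type ES and 2 of 7 (28.6%) in PCGF5-depleted ES. Over all H2AK119ub1 peaks of these lists 74.5%, 38.8% and 27.6% did. Of the 6 PCGF5 peaks of ES, 4 overlapped H3K27me3 and 1 overlapped H2AK119ub1 of wild type ES, where 4.59% and 2.91% of all PCGF5 peaks of ES did.

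Protocadherins outside the clusters, which are also adhesion proteins, were read in the same way. Of 12 (Pcdh1, Pcdh7, Pcdh8, Pcdh9, Pcdh10, Pcdh11x, Pcdh12, Pcdh15, Pcdh17, Pcdh18, Pcdh19 and Pcdh20), 5 had H3K27me3 at a start in wild type ES, 6 in PCGF5-depleted ES, 10 in wild type NPC and 8 in depleted NPC, and between 3 and 5 had H2AK119ub1. In NPC 2 of them (Pcdh11x and Pcdh20) had H3K27me3 in wild type alone (3.74% of all genes did) and 0 in PCGF5-depleted cells alone (3.54%). PCGF5 was at 0 of the 12 in ES (0.787% of all genes) and at Pcdh8 and Pcdh9 in NPC (13.7% of all genes). Among 12 genes whose products are known to act on the clusters (Ctcf, the cohesin genes Rad21, Smc1a, Smc3 and Stag2, their loader Nipbl and unloader Wapal, Smchd1, the DNA methyltransferases Dnmt3a and Dnmt3b, Setdb1 and Trim28), H3K27me3 was at Dnmt3b in PCGF5-depleted ES and at Dnmt3a in wild type NPC, H2AK119ub1 at none, and PCGF5 at Smc3 in ES.

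Repeated sequence was counted within chromosome 18 only. In the frames of Pcdhb2, Pcdhb4, Pcdhb8, Pcdhb9 and Pcdhb15, between 5.15% and 20.4% of the 36-base windows occurred more than once on the chromosome, and in the 17 beta frames with a peak up to 26.6% did, with a median of 14.4%. Over all 10 frames with no peak the median was 19.1%, and over the 49 frames with a peak it was 14.4%. The 10 include beta frames 9 to 11, which overlap no member and had 86.0%, 100% and 98.8%. The rest of the 10 had 4.22% to 27.4%. The part of repeated sequence in where peaks were called was not tested. CpG density was higher in the frames than in the spans as a whole, with a median of 46.3 CpG per kb in alpha, 27.5 in beta and 39.5 in gamma frames and 13.5 over all bases of the spans. Across the 59 frames, the Pearson correlation of CpG density with the share covered by H3K27me3 was 0.53 in wild type ES, 0.40 in PCGF5-depleted ES, 0.35 in wild type NPC and 0.42 in depleted NPC. The frames share 1 library per value and their subfamily, so this is a description, and the part of base composition in where peaks were called was not tested.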

How the data were processed

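Peak lists of 10 ChIP-seq libraries were analysed. The 6 input libraries were not used here. Flag chromatin was crosslinked and sonicated, and histone chromatin was cut by micrococcal nuclease before crosslinking. The authors trimmed reads, aligned them to mm9 with Bowtie2, removed duplicates and called peaks with MACS2 2.1.0, at its default settings for histone marks and at a p-value limit of their own for PCGF5. A fly chromatin spike-in scaled their browser tracks and is not stated to enter the peak calls. Fold enrichment, score and the −log10 p-values and q-values are those of the authors' deposited lists and served here only to rank, filter or describe peaks.

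Genes were marked by peaks centred within 2500 bp of the start of a protein-coding transcript (GENCODE M1). Covered bases were counted in the spans (first to last annotated base of a subfamily) and in open reading frames of at least 600 codons, from ATG to stop, and a frame was touched at an overlap of 1 bp. The frames, the 36-base windows and the start-site counts were added after the data were seen, and the members and gene lists were chosen with earlier results of these data known. Named were Pcdhgc5 (the only C-type symbol in the annotation), the 10 members with peaks in the most lists, members with PCGF5 or in 1 of 2 lists, and the 5 peaks of highest fold per mark. Other named frames were chosen after their values were seen. With 1 library per group there is no test. Window and overlap steps were checked on simulated peaks, where 200 of 200 planted starts were recovered and 0 others. Alternatives changed the window, the position counted, the start sites, the peak threshold, the list length and the merging of peaks. Python 3.11.15, numpy 2.4.6, pandas 2.3.3 and scipy 1.17.1 were used.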

Additional observations from a re-analysis of the deposited data

Results flagged for a closer look

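In each result listed here the difference between PCGF5-depleted and wild type cells had one sign in ES and the other in NPC. With 1 library per group, how the stages differ was not tested, and sequencing depth, which is unknown, cannot be told apart from it. When the lists of a mark were cut to the same number of top-scoring peaks, the signs over the 3 spans stayed as they were for both marks, with 18192 and 12490 bp of H3K27me3 in wild type and PCGF5-depleted ES and 26635 and 53581 bp in NPC. The base pairs of the 3 spans under H3K27me3 peaks differed by -6488 in ES and by 33034 in NPC (PCGF5-depleted minus wild type). In the alpha span the H3K27me3 differences were -5537 and 3357 bp, and in the beta span they were -2935 and 9793 bp. The gamma span had more in PCGF5-depleted cells at both stages and is not among them.

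H2AK119ub1 showed the same change of sign on far fewer bases. Over the 3 spans the differences were -1455 bp in ES and 3839 bp in NPC. In the alpha span they were -1242 and 320 bp, and in the gamma span -213 and 3237 bp. The beta span held no H2AK119ub1 peak in 3 of the 4 lists.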

How the results depend on the processing

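With 1 library per group and peaks called in each on its own, depth and background cannot be told apart from the mark, and no value here has a replicate error. The cause of the changes below was not tested, except where an alternative keeps fewer peaks or a narrower window by construction. No paired analysis was possible because each group had 1 library and the labels give no replicate numbers.

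The larger H3K27me3 coverage of PCGF5-depleted than wild type NPC and the smaller one in ES kept their direction under all 3 alternatives for peaks, with ratios of 2.01 to 2.49 in NPC and of 0.511 to 0.687 in ES. With a window of 1000 bp, the members with H3K27me3 were 3 in wild type ES, 4 in PCGF5-depleted ES and 6 in wild type NPC. The genotype difference in ES then turned to 1 from -5, and that of wild type NPC from wild type ES to 3 from -1. The latter also turned to 1 with a q-value of at most 0.01. The genotype difference in NPC, 4 members, was 7 in the 1000 bp window. The 1000 bp window left H2AK119ub1 at 0 members in both ES lists and at 1 in PCGF5-depleted NPC, and PCGF5 at 1 in ES, so that 2 H2AK119ub1 differences (PCGF5-depleted from wild type in ES, and NPC from ES in wild type) became 0. Gene 5′ ends alone gave 0 members with H2AK119ub1 in both ES lists, 1 with PCGF5 in ES, and the same differences of 0.

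The higher-scoring 50% of each list left 8 members with H3K27me3 in wild type ES against 7 in PCGF5-depleted ES (a difference of -1) and 5 in wild type NPC against 12 in PCGF5-depleted NPC (7), 1 with H2AK119ub1 in PCGF5-depleted NPC and 1 with PCGF5 in ES. It covered 1748, 1201, 0 and 2547 bp by H2AK119ub1 and 12540, 6412, 16236 and 40388 bp by H3K27me3 (wild type and PCGF5-depleted ES, then NPC). Frames touched were then 21, 12 and 15 by H3K27me3 (wild type ES, PCGF5-depleted ES, wild type NPC), 3, 0 and 4 by H2AK119ub1 (PCGF5-depleted ES, wild type NPC, PCGF5-depleted NPC) and 3 by PCGF5 in ES. With these peaks and with the q-value limit, the H2AK119ub1 difference of PCGF5-depleted NPC from ES became 0. The q-value limit left 1 member in PCGF5-depleted NPC and 3 frames in PCGF5-depleted ES with H2AK119ub1. The same number of peaks per mark left 1748, 1201 and 0 bp of H2AK119ub1 in wild type ES, PCGF5-depleted ES and wild type NPC, and 3 and 0 frames in the last 2. A minimum of 200 bp per frame, added after the data were seen, left 0 frames with H2AK119ub1 in wild type NPC and 6 in PCGF5-depleted NPC. Any base in place of the centre, nearest starts only and merged peaks changed no count of members beyond 1.5 times and turned no sign.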
